A study of Mus musculus with 18 samples.

Results

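Intracisternal A particle (IAP) elements whose names place them outside the large IAPEz and IAPEY groups were followed through HSP90 inhibition in 3 kinds of mouse cell: embryonic stem cells (ESCs), neuronal progenitor cells (NPCs) and macrophages derived from bone marrow. Members were all repeat names that begin with IAP and not with IAPEz, IAPEY, IAPLTR1 or IAPLTR2. The rule found 8 of the 1365 repeat rows of each table, among 25 IAP rows in all. They were IAP1-MM_I-int and IAP1-MM_LTR, IAPA_MM-int, IAPLTR3-int and IAPLTR3, IAPLTR4_I and IAPLTR4, and IAP-d-int, and each was listed by the authors as LTR/ERVK. A row sums the reads of all genomic copies of a repeat. Poly(A) RNA came from 18 libraries in 6 groups of 3. ESCs (strain background 129S1/CASTEiJ, grown in 2i medium) were untreated or given 100 nM NVP-AUY922 for 24 h. NPCs of the same background, cultured with EGF and FGF, were untreated or given 50 nM for 24 h. Macrophages (BALBC/C57BL6, derived from bone marrow with M-CSF) were untreated or given 500 nM for 24 h. Dose therefore changed with cell type throughout, and strain changed with it for macrophages, so these cannot be told apart. The sources used here give neither the age and number of animals nor whether replicates were separate cultures, and p-values measure only the spread between these libraries. The 3 tables compare the 3 treated with the 3 untreated libraries of a cell type and give 1 fold change per row, so no value per library is printed and the depth of single libraries is unknown. The tables list repeats and no genes, and the cell type labels were not checked against marker genes.

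IAPs are endogenous retroviruses of the ERVK class. A complete copy has an internal part, which codes for the structural protein, protease and polymerase, between identical long terminal repeats (LTRs) that carry the promoter and the polyadenylation signal. Names ending in -int or _I denote internal parts, and names with LTR denote the flanking repeats, which also occur alone in the genome as solo LTRs left by recombination. IAP copies are among the endogenous retroviruses still able to insert in mice, they differ in position between inbred strains, and they are held silent by DNA methylation and by repressive chromatin that KRAB zinc finger proteins and TRIM28 direct to them. NVP-AUY922, also called luminespib, blocks the ATPase of HSP90, a chaperone that many signalling and regulatory proteins need to fold. The series asked how HSP90 inhibition affects RNA from endogenous retroviruses.

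Nothing in the tables names the numerator of the fold change. Rows are therefore described as positive or negative in the contrast, without saying which sign means more RNA in treated cells. What 2 rows of 1 table do relative to each other does not depend on this. Base means are the authors' normalised read counts averaged over the 6 libraries of a table, without correction for length, and ± gives the standard error (SE) of the log2 fold change. A row counted as called when its adjusted p in the authors' deposited table was under 0.05. In RNA from whole cultures, a change in the share of cells that carry an RNA and a change in RNA per cell cannot be told apart.

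The members took a different shape in each cell type. In NPCs 5 of the 8 stood close together at the positive end of the authors' deposited table, between 1.76 and 2.62 on the log2 scale, and none was called on the negative side. In ESCs the IAP1 pair stood alone above 1, with IAPLTR4_I and IAPLTR3-int called at smaller positive values and IAPLTR4 called negative. In macrophages the members split, with IAPA_MM-int and the IAP1 pair positive and IAP-d-int, IAPLTR4 and IAPLTR3-int negative. All 8 members were tested in every table. In ESCs 4 were positive, 1 negative and 3 not past the threshold, where 22.2% of all tested rows were called (10.2% positive, 12% negative). In macrophages 3 were positive, 3 negative and 2 not past, where 25.8% of all tested rows were called (13.3% positive, 12.5% negative). In NPCs 5 were positive, 0 negative and 3 not past, where 11.8% of all tested rows were called (4.96% positive, 6.81% negative). Over the 8 members the median log2 fold change stood at 0.25 for ESCs, -0.08 for macrophages and 1.92 for NPCs, beside medians over all tested rows of 0.0019, -0.0129 and 0.0009. In macrophages the members' mean, 0.21, had the other sign, so their median there gives no common direction.

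**Figure D1:**
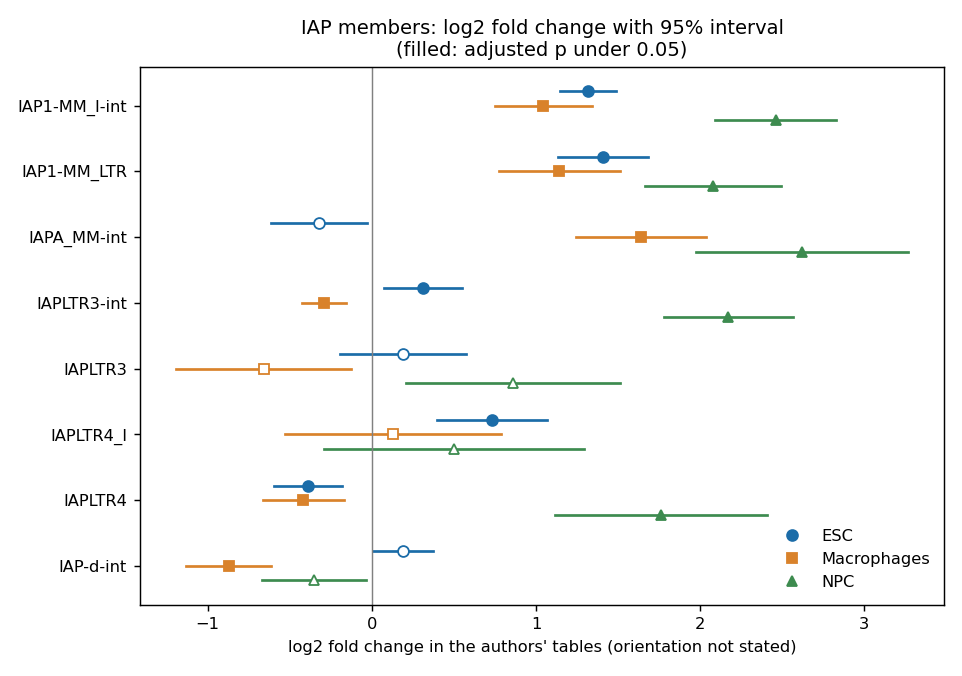
Log2 fold change (x axis) of each of the 8 IAP members (y axis) in ESCs (circles), macrophages (squares) and NPCs (triangles), with 95% intervals from the authors' standard errors and filled symbols where the adjusted p is under 0.05. The NPC values of IAP1-MM_I-int, IAP1-MM_LTR, IAPA_MM-int, IAPLTR3-int and IAPLTR4 lie between 1.76 and 2.62, while the ESC and macrophage values of IAPLTR4 are -0.39 and -0.42.

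IAP1-MM, an element with an internal and an LTR row, was called positive in all 3 tables in both rows. IAP1-MM_I-int lay at 1.32 ± 0.09 in ESCs (base mean 1121, adjusted p = 1.485e-48), 1.05 ± 0.15 in macrophages (base mean 338, adjusted p = 1.16e-10) and 2.46 ± 0.19 in NPCs (base mean 913, adjusted p = 8.783e-37), as the authors' deposited tables list it. These are differences between the groups of 2.49-fold, 2.06-fold and 5.50-fold. Taken at face value with equal group sizes, the NPC fold change would divide the base mean into about 1545 normalised reads in 1 group and 281 in the other. Its LTR row had similar values. IAP1-MM_LTR lay at 1.41 ± 0.14 in ESCs, 1.14 ± 0.19 in macrophages and 2.08 ± 0.21 in NPCs, again from the authors' deposited tables, with adjusted p of 6.732e-22, 2.366e-08 and 1.806e-20. The 2 rows differed from each other by 0.09, 0.10 and 0.38 on the log2 scale in ESCs, macrophages and NPCs, less than their summed SEs of 0.23, 0.34 and 0.40. Their reads come from the same libraries and the rows may share reads, so this is a description and their errors are not independent. Among the 1121 rows tested in all 3 tables, 7 were positive in each, and these were the IAP1 pair, IAPEz-int with its LTR IAPLTR1_Mm, RLTR44E, the DNA transposon Tigger16a and X7C_LINE. That list takes the tables as oriented alike; turning the sign of a table would exchange sides for every row in it, and these 7 would still share 1 pattern.

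IAPA_MM-int is the internal part of another IAP type and has no LTR row of its own name. From the positive end it held rank 1 of 1249 tested rows in NPCs and rank 4 of 1255 in macrophages. Counting both sides, 0.24% of tested rows in NPCs and 0.797% in macrophages were larger in size. It lay at 2.62 ± 0.33 in NPCs (6.15-fold, base mean 130, adjusted p = 1.704e-13) and 1.64 ± 0.20 in macrophages (3.11-fold, base mean 124, adjusted p = 1.924e-14) in the authors' deposited tables. In ESCs the authors' deposited table gave -0.32 ± 0.15 with adjusted p = 0.112 and, from these, a 95% interval from -0.62 to -0.03. IAPA and IAP1 thus stood on the same side in macrophages and NPCs, and apart in ESCs, where IAPA_MM-int did not pass. The SE of its NPC value was 1.41 times the median of the 275 tested rows with a base mean within 2-fold of its own. This ratio was 1.30 for its macrophage value. It was 1.51 and 1.34 for IAPLTR4 in macrophages and NPCs, and 1.39 for IAP1-MM_I-int in macrophages. All other member values had ratios between 0.81 and 1.28. At face value the NPC fold change of IAPA_MM-int would set about 223 normalised reads in 1 group against 36.3 in the other.

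IAPLTR3-int, by its name the internal part that belongs to the LTR IAPLTR3, was called in all 3 tables but not on 1 side. In NPCs it lay at 2.17 ± 0.20 (4.51-fold, base mean 365, adjusted p = 1.339e-24) in the authors' deposited table, rank 4 of 1249 tested rows from the positive end. In ESCs it lay at 0.31 ± 0.12 (1.24-fold, base mean 611, adjusted p = 0.045), and in macrophages at -0.29 ± 0.07 (1.23-fold, base mean 887, adjusted p = 1.521e-04), in the authors' deposited tables. The ESC value is at the edge of the threshold: adjusted over every row with a p, its adjusted p was 0.0531, and with Bonferroni adjustment it was 1. IAPLTR3-int therefore stood with IAP1 in NPCs and ESCs and opposite to it in macrophages. IAPLTR3 itself passed in no table. The authors' deposited tables gave it 0.19 ± 0.20 in ESCs, -0.66 ± 0.27 in macrophages and 0.86 ± 0.33 in NPCs, with adjusted p of 0.576, 0.0573 and 0.0725, at base means of 115, 22.0 and 33.5. The 95% intervals ran from -0.20 to 0.58, from -1.19 to -0.13 and from 0.21 to 1.51.

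IAPLTR4 was called in all 3 tables and changed side relative to IAP1 between cell types. This LTR lay at -0.39 ± 0.10 in ESCs (1.31-fold, base mean 433, adjusted p = 0.00177) and -0.42 ± 0.13 in macrophages (1.34-fold, base mean 981, adjusted p = 0.00552), but at 1.76 ± 0.33 in NPCs (3.39-fold, base mean 104, adjusted p = 3.898e-06), in the authors' deposited tables. It stood opposite to IAP1 in ESCs and macrophages and beside it in NPCs. With Bonferroni adjustment the ESC and macrophage calls were lost (adjusted p = 0.231 and 1). The row named as its internal part, IAPLTR4_I, lay at 0.73 ± 0.17 in ESCs (1.66-fold, base mean 129, adjusted p = 2.036e-04) in the authors' deposited table, where the LTR was negative. Here the 2 rows differed by 1.12, which is 4.07 times their summed SEs. In macrophages and NPCs IAPLTR4_I lay at 0.13 ± 0.34 and 0.50 ± 0.40 in the authors' deposited tables, with adjusted p of 0.838 and 0.576 at base means of only 8.52 and 19.9. Its 95% intervals ran from -0.53 to 0.79 in macrophages and from -0.29 to 1.29 in NPCs on the log2 scale. Its macrophage SE of 0.34 was below the 0.40 that counting error alone would give at that base mean, 0.83 times that value. Fold changes may have been shrunken towards 0, though no source used here says so, and rows with so few reads may lie nearer 0 than their reads put them. Rows with base means under 1 numbered 59 in ESCs, 75 in macrophages and 62 in NPCs. The largest log2 fold changes among them had sizes of 0.25, 0.42 and 0.37. SEs below counting error alone occurred in 283 of 1345, 343 of 1306 and 252 of 1326 rows with any reads. None of these rows had a base mean above 16.1, 21.7 and 8.08. Shrinkage was not tested, and it would also enter the differences between cell types that use these values.

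IAP-d-int, a further internal IAP row that the rule takes in, was called in macrophages alone of the 3 tables. It lay at -0.87 ± 0.13 in macrophages (1.83-fold, base mean 161, adjusted p = 6.625e-10) in the authors' deposited table, rank 33 of 1255 from the negative end and the lowest of the 8 members. In ESCs it lay at 0.19 ± 0.09 and in NPCs at -0.35 ± 0.16 in the authors' deposited tables, with adjusted p of 0.137 and 0.167 at base means of 4394 and 1110. Counting error alone at those base means would give SEs of 0.0178 and 0.0356, and the listed SEs were 5.27 and 4.56 times larger. IAP-d-int gave 60.3% of the members' summed base mean in ESCs, 37.3% in NPCs and 6.18% in macrophages, where IAPLTR4 and IAPLTR3-int gave 37.6% and 34.0%. The members together gave 2.86%, 3.40% and 3.15% of the summed base mean of all 25 IAP rows in ESCs, macrophages and NPCs.

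Base means also show how reads were divided between an LTR and its internal part, a ratio within a table that does not depend on how tables were scaled. For IAP1 the LTR row had 0.209 reads per read of the internal row in ESCs, 0.259 in macrophages and 0.327 in NPCs. For IAPLTR3 the ratio was 0.188 in ESCs, 0.0919 in NPCs and 0.0247 in macrophages. IAPLTR4 was the reverse: its LTR row had 3.36 reads per internal read in ESCs, 5.21 in NPCs and 115 in macrophages, where the internal row was nearly empty. Base means carry no error in the tables, so these ratios were not tested, and strain differs between macrophages and the other cell types. Base means pool treated and untreated libraries, so a ratio mixes both groups where the 2 rows have unlike fold changes. At face value, in ESCs IAPLTR4 and IAPLTR4_I would have 375 and 161 reads in the group on the positive side. In the other group they would have 491 and 97.1. In NPCs the same pairs would be 160 and 23.3, and 47.2 and 16.5. With all contrasts oriented alike, the order of ESCs and NPCs in this ratio then differs between the groups. The fold changes of the LTR and the internal row lay close for IAP1 in all 3 tables. In NPCs IAPLTR3-int exceeded IAPLTR3 by 1.31 on the log2 scale, 2.46 times the summed SEs, and IAPLTR4 exceeded IAPLTR4_I by 1.26, or 1.72 times. The sources used here do not say how reads that fit several copies were assigned, and reads of genes that hold a copy may enter a row.

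**Figure D2:**
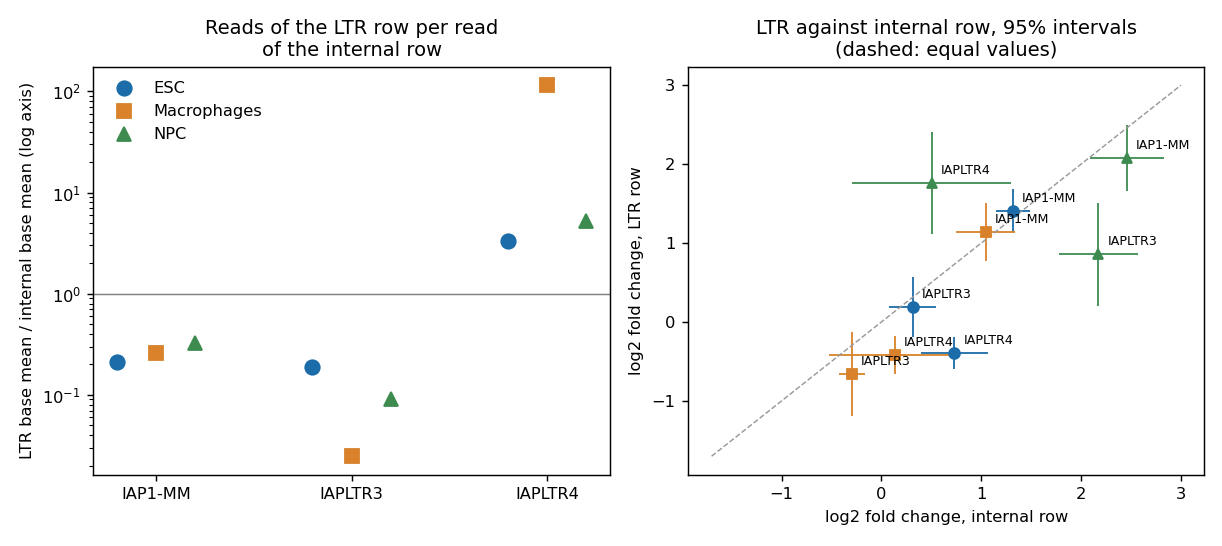
Left, base mean of the LTR row divided by that of the internal row (y axis, logarithmic) for the 3 elements with both rows, by cell type. Right, log2 fold change of the LTR row (y axis) against that of the internal row (x axis) with 95% intervals; IAP1-MM lies near the dashed line of equal values in all 3 cell types, and IAPLTR4 in ESCs has an LTR at -0.39 and an internal row at 0.73.

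Cell types were compared per row by subtracting log2 fold changes and dividing by the root of the summed squared SEs (two-sided normal p, Benjamini-Hochberg over all rows tested in both tables). They take the tables as oriented alike, and were repeated with the sign of 1 table turned. Between ESCs and NPCs 5 of 8 members differed, where 12.6% of all rows did. NPC values were higher by 2.94 ± 0.36 for IAPA_MM-int (adjusted p = 4.409e-14), 2.15 ± 0.35 for IAPLTR4 (adjusted p = 2.172e-08), 1.86 ± 0.23 for IAPLTR3-int (adjusted p = 1.992e-13) and 1.14 ± 0.21 for IAP1-MM_I-int (adjusted p = 1.107e-06). IAP-d-int was the exception, 0.54 ± 0.19 higher in ESCs (adjusted p = 0.0325). Between macrophages and NPCs 5 of 8 differed, all higher in NPCs, where 12.4% of all rows differed. The difference was 2.47 ± 0.21 for IAPLTR3-int (adjusted p = 2.856e-28), the fifth largest in size of 1222 rows, and 2.18 ± 0.35 for IAPLTR4 (adjusted p = 4.945e-08). IAP1-MM_I-int, IAP1-MM_LTR and IAPLTR3 followed at 1.41 ± 0.24, 0.93 ± 0.28 and 1.52 ± 0.43, with adjusted p of 2.765e-07, 0.0122 and 0.00659. A threshold of 0.01 would lose IAP1-MM_LTR here and IAP-d-int between ESCs and NPCs.

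Between ESCs and macrophages 4 of 8 differed, where 23.7% of all rows did. IAPA_MM-int was 1.96 ± 0.25 higher in macrophages (adjusted p = 2.508e-13). IAP-d-int, IAPLTR3-int and IAPLTR3 were 1.06 ± 0.16, 0.61 ± 0.14 and 0.85 ± 0.34 higher in ESCs, with adjusted p of 1.185e-09, 1.638e-04 and 0.0475. The value for IAPLTR3 missed the threshold without a filter on low values (adjusted p = 0.0538) and with each table centred on its median (adjusted p = 0.0544). IAP1-MM_I-int and IAP1-MM_LTR did not pass, at 0.27 and 0.27 with 95% intervals of -0.07 to 0.61 and -0.19 to 0.73. IAPLTR4 differed by 0.03, with an interval of -0.29 to 0.35. Under both orientations, chosen as a criterion after the data were seen, 2 members still differed between ESCs and macrophages, IAP-d-int and IAPA_MM-int, where 11.8% of all rows did. Between ESCs and NPCs 4 did, IAP1-MM_I-int, IAPA_MM-int, IAPLTR3-int and IAPLTR4, where 6.04% of all rows did. Between macrophages and NPCs 4 did, the IAP1 pair, IAPLTR3-int and IAPLTR4, where 6.06% of all rows did. The size of the change in these rows was larger in NPCs whichever way the tables are read, as it was in macrophages for the pair that differed from ESCs.

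**Figure D3:**
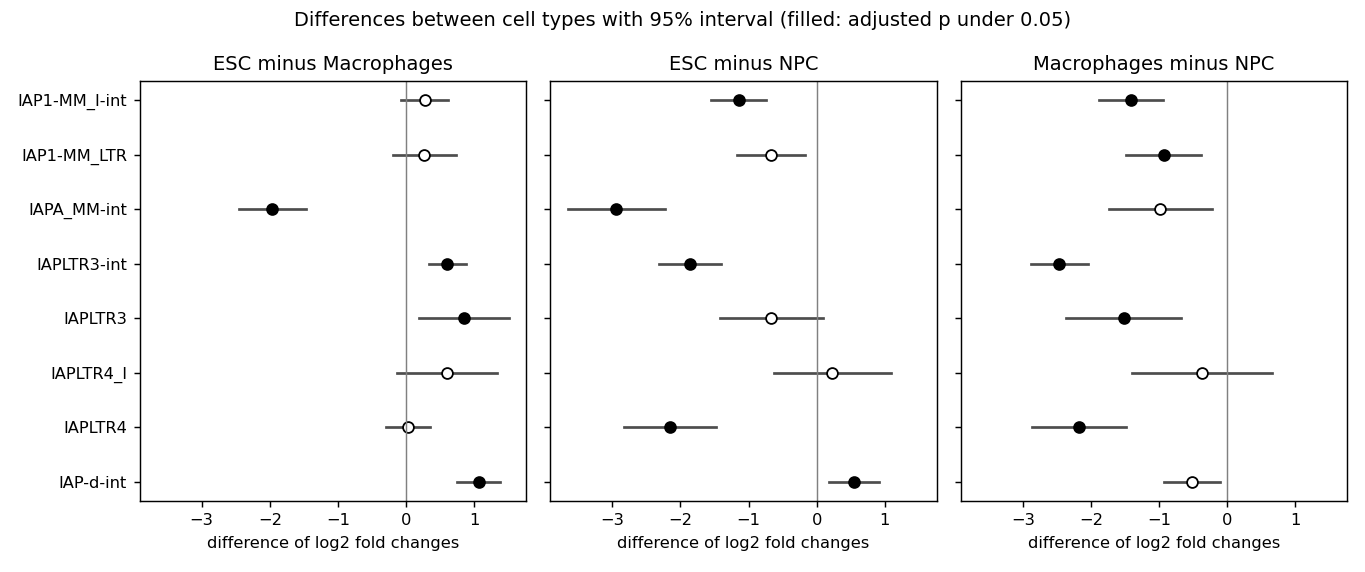
Difference of log2 fold changes between cell types (x axis) for each member (y axis), with 95% intervals and filled circles where the adjusted p is under 0.05, taking the tables as oriented alike. IAPA_MM-int is at -1.96 and -2.94 in the panels that start from ESCs, and IAPLTR3-int at -2.47 in macrophages minus NPCs.

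The other IAP rows served as a measure of how far the 8 members resembled their relatives. The list of IAPEz with IAPLTR1 and IAPLTR2 had 6 positive and 0 negative of 7 rows in ESCs, 4 and 1 in macrophages, and 2 and 0 in NPCs, with medians of 0.58, 0.19 and 0.22. The IAPEY list had 5 positive and 0 negative of 10 rows in ESCs, 0 and 2 in macrophages, and 3 and 1 in NPCs, with medians of 0.30, -0.19 and 0.16. The remaining ERVK rows had 43 positive and 57 negative of 249 tested in ESCs, 42 and 47 of 254 in macrophages, and 18 and 22 of 253 in NPCs. Other ERVK and IAP rows also differed between cell types. Of the remaining ERVK rows 34.1% differed between ESCs and macrophages, 22.9% between ESCs and NPCs and 17.4% between macrophages and NPCs. Each share was above that of all rows. Of the IAPEY list 4 of 10 rows differed between ESCs and macrophages, 3 between ESCs and NPCs and 4 between macrophages and NPCs. Of the IAPEz list 3 of 7 rows differed between ESCs and macrophages. Between ESCs and NPCs 0 of these 7 rows differed by the normal test, with 0 at an unadjusted p under 0.05. Between macrophages and NPCs 0 of 7 differed, with 1 at an unadjusted p under 0.05. With the sign of a table turned, 4 and 3 of these rows differed in those pairs. Under both orientations, 3 of 7 IAPEz, 0 of 10 IAPEY and 18.1% of other ERVK rows differed between ESCs and macrophages. These were 0, 1 and 12.0% between ESCs and NPCs, and 0, 3 and 6.72% between macrophages and NPCs. Between ESCs and macrophages the members' 2 of 8 was thus not above the IAPEz list. IAPEz-int, the internal part of the most abundant IAP type, lay at 0.80 ± 0.10 in ESCs, 1.45 ± 0.14 in macrophages and 1.10 ± 0.29 in NPCs by the authors' deposited tables. Its LTR IAPLTR1_Mm lay at 0.67 ± 0.10, 1.45 ± 0.15 and 1.20 ± 0.30, and IAPLTR2_Mm, a further IAP LTR, at 0.45 ± 0.09, 0.19 ± 0.07 and 0.12 ± 0.21, in the authors' deposited tables. In NPCs IAP1-MM_I-int lay 1.36 above IAPEz-int, 2.84 times their summed SEs, and IAPA_MM-int 1.52 above it, 2.45 times. IAP-d-int lay 1.46 below it there, 3.22 times the summed SEs. In macrophages IAP1-MM_I-int and IAPA_MM-int lay 0.41 below and 0.19 above it, 1.38 and 0.54 times the summed SEs, and IAP-d-int lay 2.33 below it, 8.42 times the summed SEs. In ESCs IAPLTR4 lay 1.19 below IAPEz-int, 5.93 times the summed SEs. These rows share libraries, so the multiples are descriptions with no p.

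**Figure D4:**
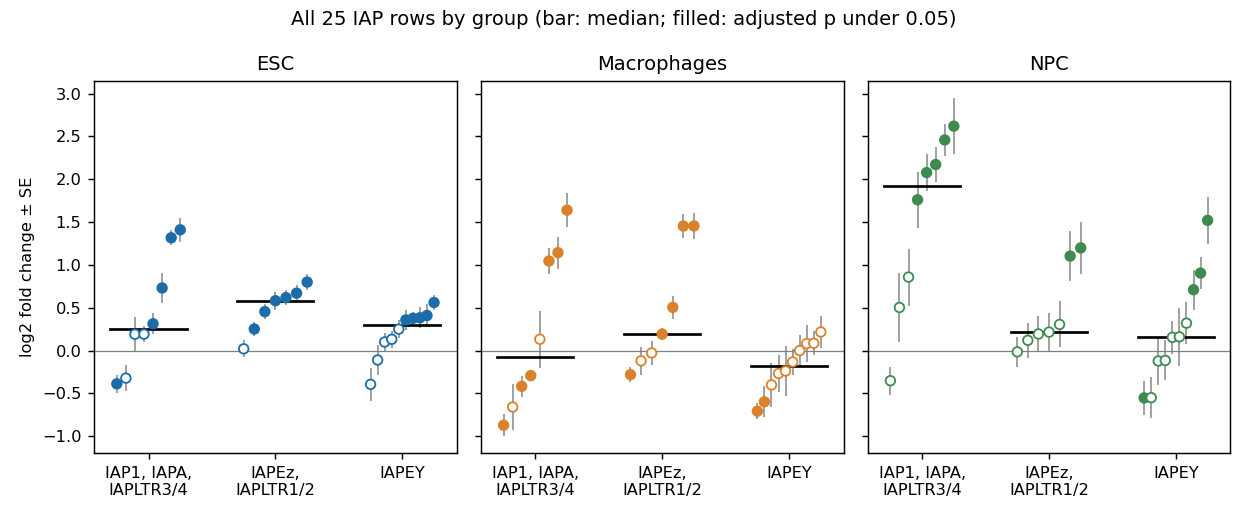
Log2 fold change (y axis, ± SE) of all 25 IAP rows in each cell type, grouped on the x axis by name, with a bar at each group's median and filled circles where the adjusted p is under 0.05. The 8 members have their median at 1.92 in NPCs, beside 0.22 for the IAPEz and 0.16 for the IAPEY list, and lie on both sides of 0 in macrophages.

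Among all tested rows the members ranked nearest the positive end in NPCs. In the NPC table IAPA_MM-int, IAP1-MM_I-int, IAPLTR3-int, IAP1-MM_LTR and IAPLTR4 held ranks 1, 3, 4, 6 and 10 of 1249 from the positive end. Eulor12, at a base mean of 9.76, was the row just below IAPA_MM-int, with 2.52 ± 0.42 in the authors' deposited table. In the ESC table the IAP1 pair held ranks 7 and 8 of 1132, just below RLTR44A at 1.42 ± 0.14 in the authors' deposited table. In the macrophage table IAPA_MM-int held rank 4 of 1255, between ERVB4_3-LTR_MM at 1.69 ± 0.33 and LTR101_Mam at 1.63 ± 0.22 in the authors' deposited table, and the IAP1 rows ranks 18 and 23. Beyond 1 on the log2 scale lay 5 of 8 members in NPCs, 3 in macrophages and 2 in ESCs, beside 5.44%, 4.22% and 3.18% of all tested rows.

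**Figure D5:**
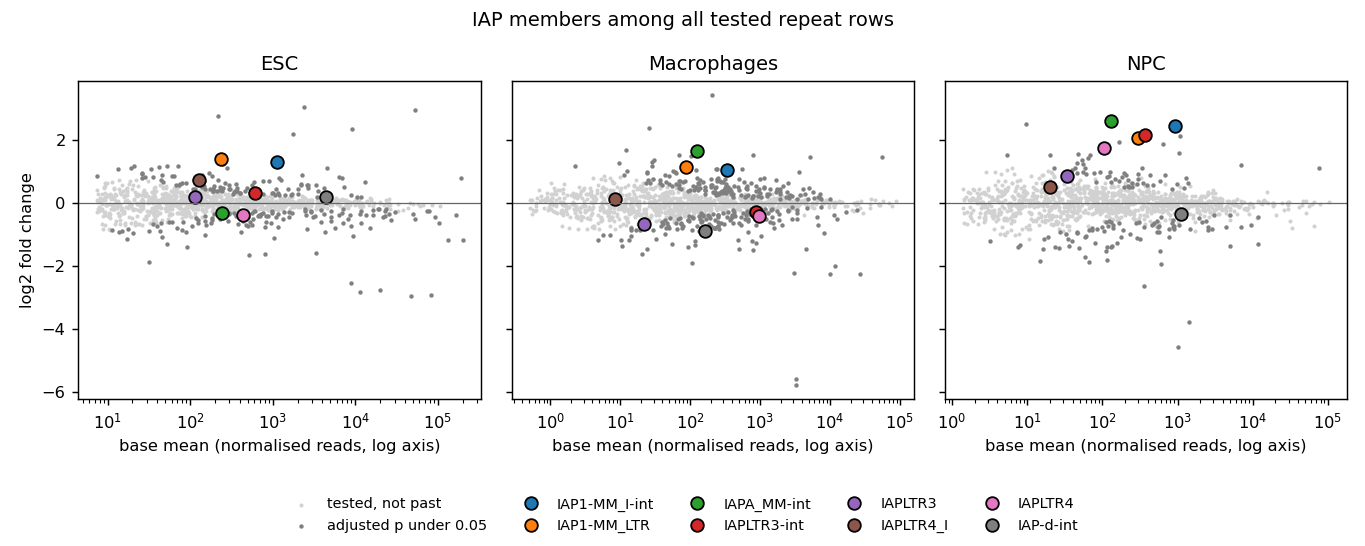
Log2 fold change (y axis) against base mean in normalised reads (x axis, logarithmic) for all tested repeat rows, with rows of adjusted p under 0.05 in darker grey and the 8 members in colour. In NPCs 5 members lie above 1.7 at base means between 104 and 913, and IAPLTR4_I and IAPLTR3 sit at the low base means of 19.9 and 33.5.

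Rows outside the members were ranked by how close they came to the members' median profile. That profile has its largest value in NPCs, so the nearest rows share this trait by the choice of target. The members split in macrophages, so it is not the profile of every member. Likeness was the Euclidean distance of the 3 log2 fold changes from the members' medians, over the 1113 other rows tested in all 3 tables. RLTR20B5_MM, an ERVK LTR, was nearest at a distance of 0.13, with 0.18 ± 0.10 in ESCs, 0.02 ± 0.13 in macrophages and 1.87 ± 0.22 in NPCs by the authors' deposited tables. LTR37B, an ERV1 element, and IAPEY3C_LTR, an IAP LTR of the IAPEY group, followed at 0.46 and 0.47, and IAPEY3C_LTR lay at 0.41 ± 0.13, -0.27 ± 0.22 and 1.52 ± 0.27 in the authors' deposited tables. The others were Charlie6, MamTip2b, LTR40A1, ERVB4_1-I_MM, Arthur1A, RLTR13A3 and ERVB5_1-LTR_MM, at distances between 0.52 and 0.89. Of these 10 rows 5 remained among the nearest 10 with test statistics in place of fold changes, and 4 with a base mean of at least 50 in every table. IAP1-MM_I-int had its own LTR row nearest, at 0.40, then Tigger16a at 0.97 and X7C_LINE at 1.44. IAPA_MM-int had no close neighbour: LTR41B, an ERVL element, was nearest at 1.09.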

How the data were processed

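RNA of 18 libraries was sequenced with a stranded, paired-end poly(A) protocol, per the labels' protocols. The submitters' processing notes name, without order, build mm10 and the tools Bowtie2, DESeq2, deepTools, featureCounts, TopHat2 2.0.13 and Trim Galore. Per the file headers, each of the 3 deposited tables is a DESeq2 result: a base mean (signal, normalised reads), a log2 fold change and its SE (log2), a Wald statistic (score), a p-value and an adjusted p-value, all by the authors. The Wald score equalled fold change over SE, and adjusted p-values equalled a Benjamini-Hochberg adjustment, within 1e-06. Each table was normalised by itself, so levels were not compared across tables.

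Because the tables hold the comparison and no counts per library, the authors' adjusted p (threshold 0.05) replaced a count model. Computed here, in Python 3.11.15 with scipy 1.17.1, were 95% intervals (1.96 SE), ranks, LTR to internal ratios and differences between cell types. The script for the differences was tested on simulated data. The simulation drew normal errors from the listed SEs, as the test assumes, so it checks the script and not those SEs. Every member was named, with IAPEz-int, IAPLTR1_Mm, IAPLTR2_Mm, the 10 rows nearest the members' median profile, the 3 nearest IAP1-MM_I-int and IAPA_MM-int, and rows next in rank to the highest member. Rows positive in all 3 tables and multiples of summed SEs were chosen after values were seen. Members and lists were chosen with earlier results of these data known. No repeat sequence was used here. Alternatives were a threshold of 0.01, other filters, centring, Bonferroni adjustment, 1 row per element and turned signs.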

Additional observations from a re-analysis of the deposited data

Results flagged for a closer look

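For 14 pairings of a member and 2 cell types, the test of the difference of log2 fold changes passed an adjusted p of 0.05, taking the tables as oriented alike. They were 4 of 8 members between ESCs and macrophages, where 23.7% of all rows differed. Between ESCs and NPCs, and between macrophages and NPCs, they were 5 of 8 each, where 12.6% and 12.4% of all rows differed. Under both orientations 2, 4 and 4 members differed in these pairs, where 11.8%, 6.04% and 6.06% of all rows did. Of the 7 rows of the IAPEz list 3, 0 and 0 did, and of the 10 rows of the IAPEY list 0, 1 and 3. Of ESC minus macrophage differences, IAP-d-int had 1.06, IAPA_MM-int -1.96, IAPLTR3-int 0.61 and IAPLTR3 0.85. Of ESC minus NPC differences, IAP-d-int had 0.54, IAP1-MM_I-int -1.14, IAPA_MM-int -2.94, IAPLTR3-int -1.86 and IAPLTR4 -2.15. Of macrophage minus NPC differences, IAP1-MM_I-int had -1.41, IAP1-MM_LTR -0.93, IAPLTR3-int -2.47, IAPLTR3 -1.52 and IAPLTR4 -2.18. Dose and cell type change together in all of them, and strain in those with macrophages, so these cannot be told apart. Samples far from their group could not be looked for, since the tables give no value per library.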

How the results depend on the processing

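No paired analysis was possible because the tables hold 1 comparison per row and no values per library. Leaving out a replicate, a replicate block and a second count model were not run for the same reason. Called members in ESCs were 3 of 8 with Bonferroni adjustment, in place of 5 of 8. With 1 row per element (the internal part), which tests fewer rows, they were 3 of 5 in ESCs and 3 of 5 in NPCs. All other counts within a cell type stayed within 1.5 times. The members' median in macrophages, -0.08, turned to 0.13 with 1 row per element, to 0.38 at a base mean of at least 50 and to a mean of 0.21, and was -0.29 without IAPA_MM-int; the cause was not tested. Means in place of medians were 0.43 in ESCs and 1.51 in NPCs. Members that differ between ESCs and macrophages were 2 under both orientations, in place of 4. Each member's value was judged again under each alternative that could be applied to it. Of 116 such pairings of a value and an alternative within a cell type, 111 stayed on their side of the threshold and 5 lost the call. Of 114 pairings of a difference between cell types and an alternative, 97 stayed, 9 lost the call and 8 gained it. All 8 gains came with the sign of 1 table turned, which makes the difference a sum. Dependence on single libraries could not be examined, and base means under 25 limit IAPLTR4_I in macrophages and NPCs and IAPLTR3 in macrophages.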

Other observations

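Of 1121 rows tested in all 3 tables, 33 (2.94%) were called in each, and 4 of them were members. Relative to the side of IAP1-MM_I-int, 7 of the 33, itself included, stood on its side in every table and 15 opposite to it in every table, a split that does not depend on orientation. Among the 15 opposite rows were RLTR30D_RN, RNERVK23-int, SRV_MM-int and MMERGLN-int, all LTR elements, and L1MdFanc_I, an L1 row. The remaining 11 changed sides. IAPLTR4 stood opposite to IAP1 in ESCs and macrophages and beside it in NPCs, a pattern shared with ERVB4_1C-LTR_Mm, ERVB4_2-I_MM and RLTR13D3. IAPLTR3-int was the only row of the 33 that stood with IAP1 in ESCs and NPCs and opposite to it in macrophages. Its place among the 33 rests on an ESC call by the authors' Wald test at adjusted p = 0.045. Adjusted over every row with a p, that value was 0.0531 and the call was lost. These rows were chosen for their calls, so the counts are a description.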
